A study of Caenorhabditis elegans with 2 samples.

Results

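MicroRNA (miRNA) genes were examined for binding of F22D6.2 fused to GFP and FLAG in whole young adult Caenorhabditis elegans hermaphrodites. The annotation held 261 miRNA genes among 46926 genes. For each of them, the summit with the highest signal value was taken from 1000 bp upstream of the 5' end to the 3' end of the gene, and a gene with no summit there was called not listed. Members were taken by annotation alone and by no measured value, but that choice was made with earlier results of these data known. The worms were of strain OP399, which carries the transgene wgIs399 and the unc-119(tm4063) allele on chromosome III. They were collected 67 hours after release of synchronized, starved L1 larvae. The tag sat at the C-terminus of F22D6.2, in a single transgenic line that keeps its own copies of the gene. Sonicated chromatin was precipitated with anti-GFP. There was 1 group, with replicates 1 and 2 labelled as biological, and the same control served both. No untagged or other control group was analysed here. In the annotation used here F22D6.2 has the symbol mstr-1. The number of reads was not given, so depth was unknown.

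A miRNA gene is transcribed into a primary transcript that folds into a hairpin. The hairpin is cut out in the nucleus by the Drosha and Pasha complex, cut again by Dicer, and one arm is loaded into an Argonaute protein. The loaded strand pairs with target mRNAs mostly through its seed, bases 2 to 8, and lowers their translation or stability. Genes with the same seed form a family with overlapping targets. In the worm, lin-4 and let-7 set the timing of larval development, and the mir-35 and mir-51 families are needed for embryonic development. The annotated 5' end of most miRNA genes is that of the hairpin, with a median gene length of 95 bp, and the start of the primary transcript usually lies further upstream and is not given by these gene models. Some miRNA genes lie within introns of protein-coding genes and can be transcribed with them.

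The mature miRNAs of the families and clusters with the highest peaks are printed first, to show which genes share a seed. All sequences here were read from the RefSeq copy of WBcel235, the same assembly as ce11, and run 5' to 3' with the seed in capitals. The mir-51 family shares the seed ACCCGUA, and its members carry it on different arms of the hairpin.
miR-51-5p (chromosome IV): uACCCGUAgcuccuauccauguu
miR-52-5p (chromosome IV): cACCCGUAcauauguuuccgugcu
miR-53-5p (chromosome IV): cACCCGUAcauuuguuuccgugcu
miR-54-3p (chromosome X): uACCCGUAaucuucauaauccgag
miR-55-3p (chromosome X): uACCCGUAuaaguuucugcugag
miR-56-3p (chromosome X): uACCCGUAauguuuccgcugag
Of the printed bases, 23 of 24 were identical between miR-52 and miR-53, and between 9 and 14 at matching positions in every other pair of the family. A cluster in an intron of gcn-1 on chromosome III carries the seed AUGACAC in all 4 of its genes, and 3 of the mature miRNAs are printed.
miR-229-5p (chromosome III): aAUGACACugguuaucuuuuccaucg
miR-64-5p (chromosome III): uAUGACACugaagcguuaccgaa
miR-66-5p (chromosome III): cAUGACACugauuagggauguga
The mir-58 family, related to the insect miRNA bantam, has mir-80 as its member with a high peak, and mir-81 and mir-82 share the mir-80 seed. miR-58a, which has another seed, is printed for contrast.
miR-80-3p (chromosome III): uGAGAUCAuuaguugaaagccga
miR-81-3p (chromosome X): uGAGAUCAucgugaaagcuagu
miR-82-3p (chromosome X): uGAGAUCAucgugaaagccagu
miR-58a-3p (chromosome IV): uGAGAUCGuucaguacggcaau

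The sequence around the summit is printed for the peaks that passed the authors' threshold and lay nearest to a hairpin, to show where in the gene the signal was centred. Each run is given on the strand of the miRNA gene, the summit is base 51 from its 5' end, and capitals mark bases of the annotated hairpin gene. At mir-51 and mir-4936 the summit itself fell inside the hairpin gene. At mir-5549 and mir-2214 it lay just upstream. For mir-54 and mir-80 the run was extended to reach 20 bases into the hairpin gene.
mir-51 (chrIV:11026045-11026145, minus strand): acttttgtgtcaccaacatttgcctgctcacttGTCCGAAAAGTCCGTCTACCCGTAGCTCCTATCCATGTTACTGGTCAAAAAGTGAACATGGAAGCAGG
mir-4936 (chrIII:3249136-3249236, plus strand): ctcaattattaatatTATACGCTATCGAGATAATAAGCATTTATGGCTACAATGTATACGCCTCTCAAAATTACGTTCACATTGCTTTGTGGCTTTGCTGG
mir-5549 (chrIII:6972060-6972160, minus strand): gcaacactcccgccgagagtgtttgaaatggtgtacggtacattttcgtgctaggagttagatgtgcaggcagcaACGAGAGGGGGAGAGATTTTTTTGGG
mir-2214 (chrIII:7278619-7278719, plus strand): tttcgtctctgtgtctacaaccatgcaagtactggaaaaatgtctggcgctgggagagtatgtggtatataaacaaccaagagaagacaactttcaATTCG
mir-54 (chrX:13145075-13145342, minus strand): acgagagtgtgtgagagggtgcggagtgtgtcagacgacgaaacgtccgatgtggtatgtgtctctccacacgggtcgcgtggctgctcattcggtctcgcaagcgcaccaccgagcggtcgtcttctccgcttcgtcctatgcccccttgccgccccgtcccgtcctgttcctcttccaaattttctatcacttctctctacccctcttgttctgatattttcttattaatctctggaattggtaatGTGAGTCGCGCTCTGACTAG
mir-80 (chrIII:8865348-8865598, minus strand): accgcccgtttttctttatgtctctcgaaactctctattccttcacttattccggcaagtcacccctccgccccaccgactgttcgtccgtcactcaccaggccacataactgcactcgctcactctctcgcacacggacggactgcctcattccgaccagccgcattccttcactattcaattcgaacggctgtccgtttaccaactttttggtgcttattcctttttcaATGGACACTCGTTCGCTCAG
None of these 6 runs overlapped an annotated coding exon or UTR. The share of G and C, over 50 bp on either side of the summit, at the 9 thresholded summits of miRNA genes ran from 34.7% at mir-4936 to 59.4% at the mir-54 locus, with a median of 49.5%. The median was 48.5% over all 778 nuclear thresholded summits, and 37.6% over all 25982 nuclear regions of the pooled list.

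Of the 261 miRNA genes, 109 (41.8%) had a summit in the list made from both replicates pooled, against 36% of all genes. Protein-coding genes stood higher, at 54.1%, and piRNA genes, 15363 of the 46926 genes, lower, at 14.3%. The pooled list held 26002 peaks and background regions, so a listed summit is not by itself a call of binding. A summit in the pooled list and in the list of each replicate was found for 69 miRNA genes (26.4%). That share was 21.4% of all genes, 36.5% of protein-coding genes and 4.44% of piRNA genes. The authors' thresholded set held the 798 highest pooled regions, and 14 miRNA genes (5.36%) had a summit from it. That share was 2.49% of all genes, 3.45% of protein-coding genes and 0.391% of piRNA genes. The window follows the length of a gene, so the same counts were also made for every gene from 1000 bp before to 100 bp after its 5' end. There, 108 miRNA genes (41.4%) were listed, against 25.9% of all genes and 31.5% of protein-coding genes. In the same window 14 miRNA genes (5.36%) had a thresholded summit, against 2.08% of all genes and 2.55% of protein-coding genes. With a summit in all 3 lists the shares were 25.7% of miRNA genes, 12.4% of all genes and 16% of protein-coding genes. Genes for other small structured RNAs stood higher, with a thresholded summit at 16.9% of tRNA, 18.8% of snoRNA and 10.9% of snRNA genes in that window, and piRNA genes lower, at 0.417%. Genes annotated as ncRNA stood at 2.37%. These shares are descriptions with no test, because genes of 1 cluster share summits and are not independent.

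**Figure D1:**
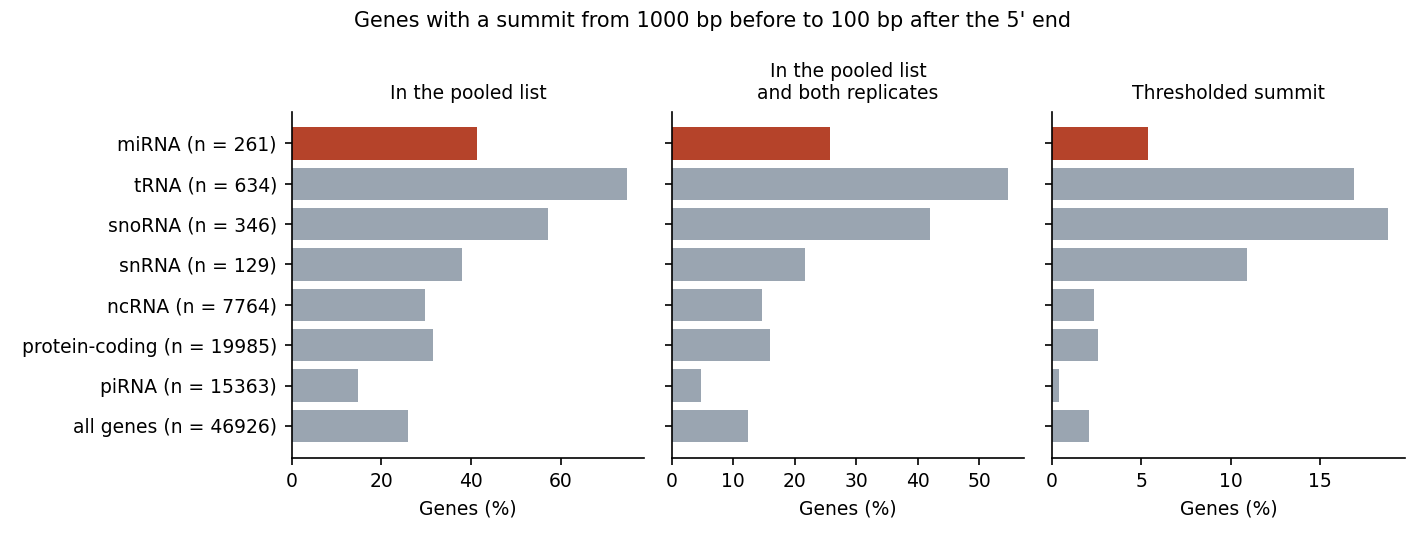
Share of genes (%) with a summit from 1000 bp before to 100 bp after the 5' end, in the pooled list, in the pooled list and both replicate lists, and in the thresholded set; each bar is 1 gene class, with miRNA genes at the top in red and all genes at the bottom. The miRNA bars (41.4%, 25.7% and 5.36%) lie above those of protein-coding genes (31.5%, 16% and 2.55%) and below those of tRNA and snoRNA genes.

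The 14 genes with a thresholded summit shared 9 summits, 1 at each of 9 loci, out of 227 miRNA loci. Such a summit was found for 3.35% of the 209 miRNA genes alone in a locus. For the 52 genes in a locus of 2 or more the share was 13.5%. By locus, 2 of these 18 loci had a thresholded summit, against 7 of the 209 single ones. The share by gene counts every gene of a cluster, and the difference was not tested. Signal values are those the authors' peak caller gave over the control, on a scale that was not given, and values of different lists are not on a common scale. Among the 109 listed miRNA genes the pooled value ran from 15.3 to 147 with a median of 31.8, and the median over all listed genes, found in the same way, was 25.4. The lowest value of the thresholded set was 80.3. The highest summits at miRNA genes therefore stood far below the highest regions of the list, at ranks 203 to 692 of 26002.

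All 6 members of the mir-51 family were listed in the pooled list and in both replicates, and 4 of them had a thresholded summit. The highest summit lay at the cluster of mir-54, mir-55 and mir-56 on X, in an intron of F09A5.3 on the opposite strand. It had a value of 139.9 in the pooled list (rank 228), 66.0 in replicate 1 (rank 284) and 75.6 in replicate 2 (rank 223), and was thus near the same place in the order of all 3 lists. The summit, at base 13145292, lay 198 bp upstream of mir-54, 368 bp upstream of mir-55 and 505 bp upstream of mir-56, in the run printed above. It lay closer, 21 bp upstream, to a gene annotated as ncRNA on the same strand, F09A5.11, so the cluster lost its thresholded summit where each summit went only to the nearest 5' end. At mir-51 on chromosome IV the value was 86.4 in the pooled list, 40.0 in replicate 1 and 52.4 in replicate 2. Its pooled summit lay 17 bp inside the hairpin gene, as it did in replicate 1, and in replicate 2 the highest summit lay 59 bp upstream. mir-53 lies next to mir-51 on the same strand and had its own summit 38 bp upstream with a pooled value of 57.2, which missed the threshold. Its values were 32.0 in replicate 1 (rank 1539) and 24.4 in replicate 2 (rank 3139). mir-52, on the same chromosome but apart from both, had a pooled value of 79.3 with its summit 676 bp upstream. That summit lay inside a gene annotated as ncRNA on the opposite strand. It was also 30 bp upstream of another ncRNA gene, on the strand of mir-52, so it cannot be assigned to mir-52 alone. mir-52 was the member nearest below the threshold, and mir-51 was the nearest above it. The values at mir-52 were 31.8 in replicate 1 (rank 1557) and 52.2 in replicate 2 (rank 535). The 6 genes thus stand for 4 summits at 4 places, of which 2 passed the threshold.

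**Figure D2:**
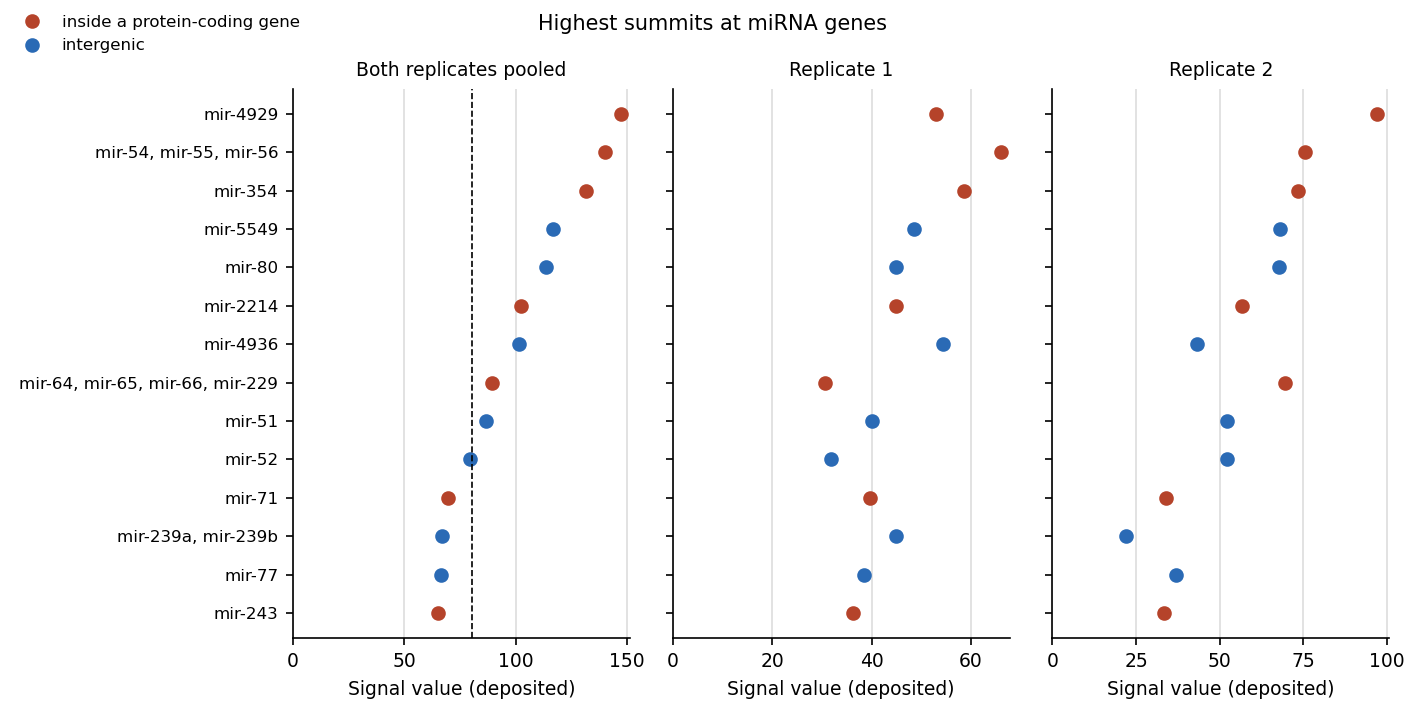
Signal value as deposited (x axis, each panel with its own scale) of the 14 highest summits at miRNA genes, in the pooled list and in each replicate; 1 row is 1 pooled summit with every miRNA gene it marks, and colour gives the place of the genes. The dashed line is the lowest value of the thresholded set (80.3). Order by pooled value is kept in part by the replicates. By rank over the whole list of each replicate, the mir-239 pair and the mir-64 cluster differ most between them.

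The cluster of mir-229, mir-64, mir-65 and mir-66 lies in an intron of gcn-1, a gene for a conserved translation regulator, on the same strand. Its summit, at base 2172137 on chromosome III, lay 315 bp upstream of mir-229, the first gene of the cluster, and 20192 bp after the 5' end of gcn-1. The pooled value was 89.2 (rank 653). mir-64, mir-65 and mir-66 lost this summit with a window of 500 bp, or when it went to the nearest 5' end, and mir-229 kept it. The replicates differed here, with 30.7 in replicate 1 (rank 1685) and 69.7 in replicate 2 (rank 268). For mir-66, whose window ends short of the replicate 2 summit, the highest summit in replicate 2 was another one, with 27.0 (rank 2428). mir-63, which has the same seed but lies alone on X, was not in the pooled list and had a value of 21.1 in replicate 1 only.

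mir-80 had a pooled value of 114 (rank 380), with 44.9 in replicate 1 (rank 683) and 67.8 in replicate 2 (rank 286). Its summit lay 181 bp upstream of the hairpin gene in intergenic sequence on chromosome III, and the nearest 5' end of a protein-coding gene, K01F9.2, was 11580 bp away. Its relatives stood lower. mir-82 had a pooled value of 31.1 and no summit in replicate 2. mir-58b had 19.8 in the pooled list, 17.7 in replicate 1 and 19.3 in replicate 2, and mir-58c, outside the fixed list but with the mir-80 seed, lies beside it and shares its summits. mir-58a and mir-81 were absent from the pooled list, with 14.5 and 12.7 in replicate 1 only, and mir-2209a, mir-2209b and mir-2209c were in none of the 3 lists. Of the 8 genes of this family that matched the annotation, 3 were listed in the pooled list and mir-80 alone had a thresholded summit.

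A pair of thresholded summits had a protein-coding 5' end within 500 bp. mir-354 overlaps a coding exon of rps-20, which encodes a protein of the small ribosomal subunit, on chromosome I from 14468382 to 14468491. Its summit lay 841 bp upstream of mir-354, and it was 229 bp upstream of rps-20 and 168 bp upstream of ekl-4, between these divergent genes. It was not counted for mir-354 with a window of 500 bp or by the nearest 5' end. The value was 132 in the pooled list, 58.6 in replicate 1 and 73.5 in replicate 2. mir-5549 lies on chromosome III between eef-1A.1, which encodes a translation elongation factor, and rfc-4, which encodes a subunit of the replication factor C clamp loader. The summit was 25 bp upstream of mir-5549, 143 bp upstream of rfc-4 and 398 bp upstream of eef-1A.1. The value was 117 in the pooled list, 48.4 in replicate 1 and 67.9 in replicate 2. At these summits the signal at the miRNA gene and that at the promoter of its neighbour cannot be told apart.

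The remaining thresholded summits had no protein-coding 5' end at that distance. mir-4929 had the highest pooled value of all miRNA genes, 147 (rank 203), with 53.0 in replicate 1 (rank 481) and 97.1 in replicate 2 (rank 122). It lies in an intron of E01G4.3 on the same strand of chromosome II, and its summit was 350 bp upstream of the hairpin gene and 7388 bp after the annotated 5' end of E01G4.3. mir-2214, in an intron of B0361.11 on chromosome III, had a summit 46 bp upstream with 102 in the pooled list, 44.9 in replicate 1 and 56.8 in replicate 2. mir-4936, intergenic on the same chromosome, had its summit 35 bp inside the hairpin gene, with 101.3 in the pooled list, 54.4 in replicate 1 and 43.3 in replicate 2. Its value ranked higher in replicate 1 (448) than in replicate 2 (823), which held for mir-66 too and for no other gene of the 14. By the same distance, 2 of these 9 summits (22.2%) lay near a protein-coding 5' end, against 42.4% of all 778 nuclear thresholded summits, and 0 of 9 near a tRNA, snoRNA or snRNA gene, against 20.3%. An ncRNA 5' end lay near 4 of the 9 (44.4%), against 24.3% of the 778. Over the 91 distinct summits of all listed miRNA genes these shares were 22% for protein-coding, 4.4% for tRNA, snoRNA or snRNA and 29.7% for ncRNA genes. The difference was not tested.

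Both miRNA genes inside protein-coding genes and intergenic ones carried thresholded summits. Of 106 genes that lay whole within a protein-coding gene, 57 (53.8%) were listed and 10 (9.43%) had a thresholded summit, at 5 loci. Of 152 intergenic genes, 52 (34.2%) were listed and 4 (2.63%) had a thresholded summit, at 4 loci. The other 3 genes overlapped a protein-coding gene in part, and none of them was in the pooled list. The clusters at gcn-1 and F09A5.3 made up 7 of the 10 genes inside, and counted by locus the classes held 5 of 92 and 4 of 132. The median pooled value of listed genes was 31.1 inside and 32.9 between genes. In replicate 1 alone, taken over its 798 highest peaks and so without replicate 2, 6 genes inside and 5 intergenic genes were marked. The 4 genes of the gcn-1 cluster were lost inside, and among intergenic genes mir-51 was lost and mir-239a and mir-239b were added. In replicate 2 alone, 9 and 4 were marked. The difference between the classes was not tested. Other RNA genes gave the opposite order, with a thresholded summit at 2.12% of ncRNA genes inside protein-coding genes and at 3.14% of intergenic ones, and at 8.97% and 18.8% of tRNA genes.

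Within the 106, the host lay on the same strand for 74 genes and on the opposite strand for 32, and the shares with a thresholded summit were 9.46% and 9.38%. The 3 genes on the opposite strand were all of the mir-54 cluster. Of the genes inside, 98 lay in introns, and 9 of these had a thresholded summit. By chromosome, III stood out, with a thresholded summit at 8 of 27 miRNA genes (29.6%, 5 loci), against 5% of all genes on that chromosome. The shares on X (3 of 74, 4.05%), I (1 of 33, 3.03%), II (1 of 49, 2.04%) and IV (1 of 50, 2%) were set against 3.99%, 3.47%, 3.38% and 0.969% of all genes there. Chromosome IV held 19704 genes, more than any other. The shares of all genes include piRNA genes, 15363 in the annotation, of which 0.391% had a thresholded summit. How far they lower the share on IV was not counted, so 2% is not shown to be high there. None of the 28 miRNA genes on V had a thresholded summit, against 2.45% of all genes on V. Of the 28, 10 (35.7%) were listed, against 41.5% of all genes on V. Chromosome III was singled out after its values were seen, and 4 of its 8 genes share the gcn-1 summit.

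The window is mostly upstream sequence, with a median length of 1095 bp for a median gene of 95 bp, so most summits had to lie upstream. Of 91 distinct summits, 7 (7.69%) fell within the gene, 56 (61.5%) within 500 bp upstream and 28 (30.8%) further upstream. The median was 279 bp upstream, measured from the nearest gene where several shared a summit. Counted by gene, 57.4% of the listed miRNA genes had their highest summit within 500 bp upstream in the fixed window, against 51.7% of all listed genes and 58% of listed protein-coding genes. Of the 14 thresholded genes, 2 had the summit within the hairpin gene, 7 within 500 bp upstream and 5 further away.

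**Figure D3:**
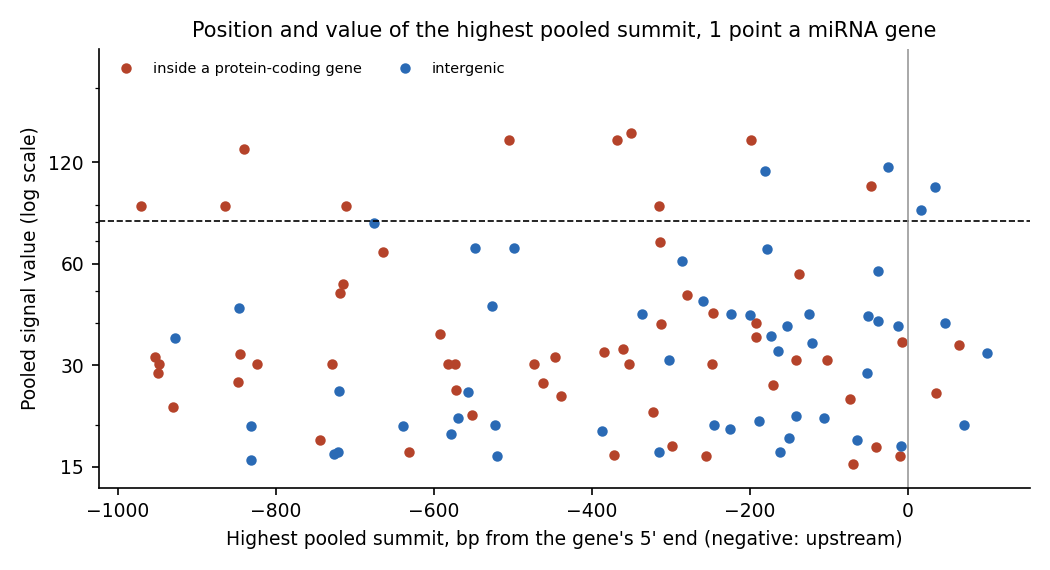
Distance of the highest pooled summit from the gene's 5' end (x axis, bp, negative upstream) and its pooled signal value (y axis, log scale) for each of the 109 listed miRNA genes, coloured by place. The dashed line is the lowest value of the thresholded set. Points above it run from 971 bp upstream to 35 bp inside the gene, and points of 1 cluster lie at the same height.

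The replicates listed miRNA genes about equally often, 108 in replicate 1 and 94 in replicate 2. Both replicates and the pooled list shared 69 genes, and 123 genes were in none of the 3 lists. Of the 69 genes, with 55 distinct pooled summits, 31 summits (56.4%) had the highest summits of the replicates within 100 bp of each other, with a median distance of 81 bp. At the thresholded genes that distance was between 13 and 81 bp, apart from mir-66. The thresholded set was derived from both replicate lists and the pooled list. Agreement of the replicates at its genes, in place or rank, is thus no independent measure. Across 59 distinct pairs of summits, Spearman's rho of the signal value between the replicates was 0.65. This is a description across sites that share 1 control, not across independent samples. Of the 14 thresholded genes, 8 were among the 798 highest peaks of both replicates, 9 among those of replicate 1 and 12 among those of replicate 2. The genes missing from replicate 1 were mir-51 and the 4 of the gcn-1 cluster, and those missing from replicate 2 were mir-66 and mir-4936. The authors' q-value was under 0.05 for 39 of the 109 listed genes (35.8%), against 13.6% of all pooled regions, and the highest summit of a window was taken for each gene, which raises the first share.

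**Figure D4:**
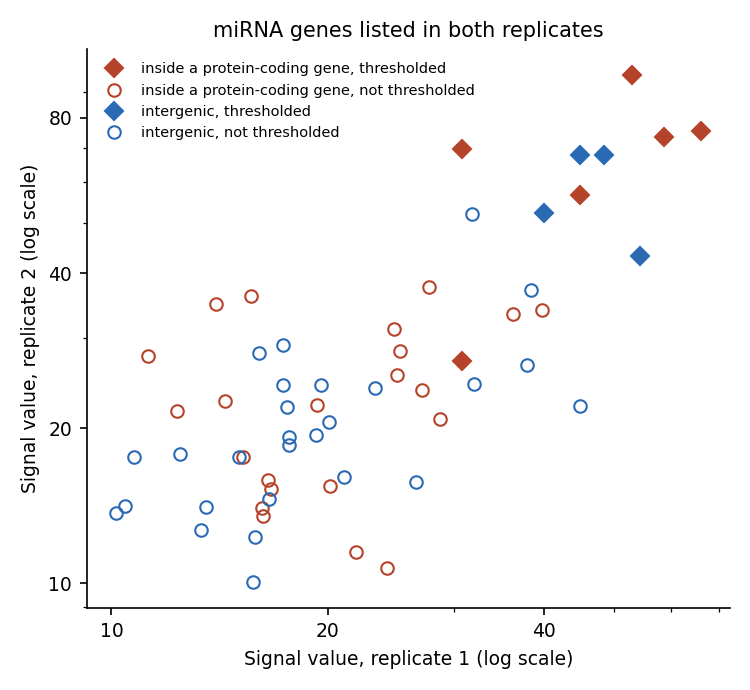
Signal value in replicate 2 (y axis) against replicate 1 (x axis), both on log scales, for 59 distinct pairs of summits at miRNA genes listed in both replicates; filled diamonds passed the authors' threshold in the pooled list, open circles did not, and colour gives the place of the genes. Filled diamonds lie at the upper right, except that of mir-66, at 30.7 and 27.0.

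The mir-35, let-7 and lin-4 families, all known from development as is the mir-51 family, had pooled values below those of the mir-51 family. All 8 genes of the mir-35 family were listed, 7 of them through 1 summit upstream of the mir-35 to mir-41 cluster. That summit had 30.3 in the pooled list (rank 6439) and 21.9 in replicate 1 (rank 3909), and the highest summit in the windows of mir-35 to mir-38 in replicate 2, at another position, had 11.5 (rank 18041). mir-42, at its own locus, had 42.6 in the pooled list, 19.3 in replicate 1 and 19.4 in replicate 2. In the let-7 family, mir-241 had 44.9 in the pooled list, 23.2 in replicate 1 and 24.0 in replicate 2. mir-48 had 40.2 in the pooled list, 31.7 in replicate 1 and no summit in replicate 2, and mir-84 had 16.6 in the pooled list alone. mir-793, mir-794 and mir-795 were not listed. No summit lay in the window of let-7 in any of the 3 lists, but its gene model of 1732 bp is the longest of all and holds the primary transcript. Beyond that window, 1835 bp upstream of the 5' end, lay a thresholded summit with a pooled value of 87.5 (rank 675), 37.4 in replicate 1 (rank 1076) and 48.0 in replicate 2 (rank 665). lin-4, which represses lin-14, had 33.5 in the pooled list, none in replicate 1 and 22.1 in replicate 2, and its relative mir-237 was not listed. None of these 3 families had a thresholded summit within the window.

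**Figure D5:**
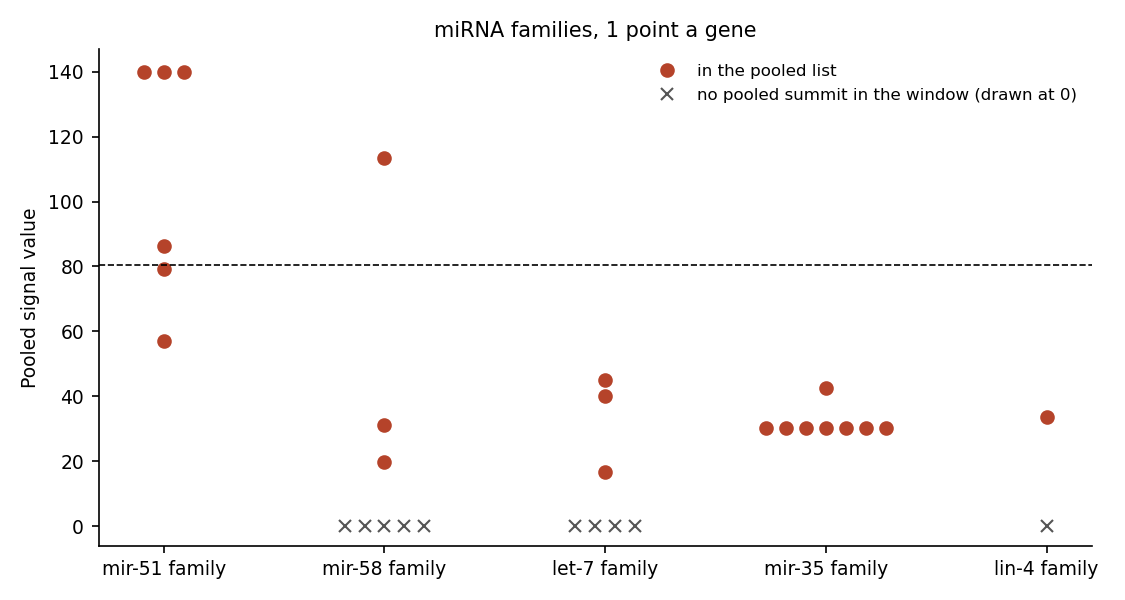
Pooled signal value (y axis) of every gene in 5 miRNA families, 1 point a gene; circles are genes in the pooled list, crosses genes with no pooled summit in the window, drawn at 0. The dashed line is the lowest value of the thresholded set. Points of the mir-51 family lie between 57.2 and 139.9, whereas those of the let-7, mir-35 and lin-4 families lie at 44.9 or below.

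Among single genes chosen for their known roles, mir-71, which acts in lifespan and stress resistance, came nearest to the threshold. It had 69.8 in the pooled list (rank 1061), 39.7 in replicate 1 (rank 925) and 33.9 in replicate 2 (rank 1456), with its summit 314 bp upstream in an intron of ppfr-1. The summit lay closer, 20 bp upstream, to an ncRNA gene on the opposite strand, F16A11.8. mir-34 had 16.6 in the pooled list, 17.7 in replicate 1 and 18.6 in replicate 2. mir-124, a miRNA of sensory neurons, had 21.4 in the pooled list, no summit in replicate 1 and 19.9 in replicate 2. lsy-6, which sets the left and right identity of a pair of taste neurons, was listed in replicate 1 alone (14.9), and mir-1, a muscle miRNA, in none. None of these single genes had a thresholded summit. Below mir-52 and mir-71, the next highest genes were mir-239a and mir-239b, which share a summit with a pooled value of 67.1. That summit had 44.8 in replicate 1 (rank 686) and 22.1 in replicate 2 (rank 3968), and a snoRNA gene, C34E11.20, begins 218 bp from it. mir-77 followed with 66.2, and its summit lay 4 bp inside the snoRNA gene T21B4.20. mir-243 had 64.9, at a summit 375 bp after the 5' end of its host R08C7.12.

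Genes for proteins that make miRNAs or act with them were taken from a fixed list, by the same window. That list too was chosen with earlier results of these data known. Of 29 such genes found in the annotation, 26 (89.7%) were listed and 5 (17.2%) had a thresholded summit, against 54.1% and 3.45% of all protein-coding genes. The windows of these genes include the gene body and so differ in length, and no test was made. The highest was nhl-2, a TRIM-NHL cofactor of the miRNA-induced silencing complex, with 315 in the pooled list (rank 47), 137 in replicate 1 (rank 60) and 179 in replicate 2 (rank 40). ain-1, a GW182-like partner of Argonaute, had 186 in the pooled list, 84.8 in replicate 1 and 99.8 in replicate 2. vig-1, a component of the silencing complex, had 111 in the pooled list, 54.6 in replicate 1 and 55.2 in replicate 2, and lin-66, a timing gene that acts on lin-28, had 108, 51.5 and 58.4 in the same lists. cgh-1, an RNA helicase of processing bodies, had 93.9 in the pooled list, 35.9 in replicate 1 and 59.1 in replicate 2. All 5 summits lay upstream of the 5' end, from 392 bp at lin-66 to 895 bp at ain-1. With each summit given only to the nearest 5' end, 3 of the 5 genes kept a thresholded summit. The rest lost theirs to another gene. Only vig-1 and lin-66 kept a thresholded summit with a window of 500 bp. The genes for the core enzymes and Argonautes had no thresholded summit. drsh-1, which encodes Drosha, had 22.4 in the pooled list, 24.2 in replicate 1 (rank 2988) and none in replicate 2. Its partner gene pash-1 had 24.5 in the pooled list, 12.04 in replicate 1 and 11.6 in replicate 2. The Dicer gene dcr-1 had 18.0 in the pooled list, 21.9 in replicate 1 (rank 3883) and 10.5 in replicate 2. The Argonaute genes had pooled values of 23.6 at alg-1 and 29.0 at alg-2, on either side of the median of listed protein-coding genes, 26.3. Of 16 known targets and partners, 14 (87.5%) were listed and none had a thresholded summit, against 54.1% and 3.45% of all protein-coding genes. With 16 genes and a share that low, the lack of a thresholded summit is not shown to be unusual. The windows here too include the gene body, and no test was made. The highest of the 14 were lin-46 (78.7), lin-14 (70.8), daf-12 (65.3) and lin-42 (63.9) in the pooled list. Each was also in both replicates, at 24.2 and 45.0 for lin-46, 32.5 and 34.7 for lin-14, 23.1 and 38.1 for daf-12, and 23.6 and 38.8 for lin-42 in replicates 1 and 2.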

How the data were processed

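Per the file lists deposited with the samples, each ce11 list was derived from the alignments of 1 or both replicates and 1 control, and the thresholded set from the 2 replicate lists and the pooled list. Values used were the deposited signal (over the control), the deposited −log10 q-value and the deposited summit offset. The labels of the deposited lists name IDR (irreproducible discovery rate) for the threshold. The cut-off used, the aligner, the peak caller and versions are not given in the sources used here. Read depth was unknown, so no interval was computed. The 4 ce10 lists were not used, since no annotation of that build was at hand, and no coordinates were converted.

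Ensembl release 115 gave the gene models of WBcel235. RefSeq named genes by WormBase ID (260 of 261 matched) and gave the sequences. Coordinates count from 1. A gene within a protein-coding gene on either strand was called inside, and genes within 1000 bp on the same strand formed 1 locus. Python 3.11.15 was used, and the window functions were tested on simulated peaks. No test was made: with 1 group and genes that share summits, counts are described beside those of all genes. Named genes were all those with a thresholded summit, the 6 highest others, members of fixed families and the 4 highest of 2 protein lists, to which cgh-1 was added to complete a count of 5. Members and lists were chosen with earlier results of these data known.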

Additional observations from a re-analysis of the deposited data

How the results depend on the processing

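Of 52 counts under other settings, 35 were within 1.5 times the reported one. With 500 bp upstream, 9 miRNA genes had a thresholded summit (5 inside protein-coding genes), 41 were in all 3 lists, and 2 miRNA pathway protein genes had a thresholded summit. With a stricter set, the 399 highest peaks, these were 7 miRNA genes, 5 inside and 2 intergenic, at 5 loci, and 2 protein genes. With each summit given only to the nearest 5' end of any gene, 7 miRNA genes (3 inside) and 3 protein genes had a thresholded summit, 59 miRNA genes were listed and 29 were in all 3 lists. Counting hosts only on the same strand made 7 thresholded genes intergenic. With 2000 bp upstream, 18 genes had a thresholded summit, let-7 and mir-71 among them.

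From the list of a single replicate, the count of thresholded miRNA genes was 11 to 13, that of genes inside 6 to 9, intergenic 4 to 5, loci 9 in both, and protein genes 4 to 5. Listed genes numbered 94 to 108, which here also stands for genes in all lists, since 1 list remains. Replicate 1 alone kept 9 of the 14 genes and replicate 2 alone 12. No paired analysis was possible because there was 1 group. Depth was unknown, so a gene not listed is not shown to be unbound.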

Other observations

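Seeds were read from every annotated arm, 458 mature miRNAs of 260 genes. Some genes therefore count under 2 seeds, and a seed group need not be a separate family. Of 46 seeds shared by 2 or more genes, 6 had every gene in the pooled list, 25 had some and 15 had none, and 41.8% of all miRNA genes were listed. A thresholded summit was found in 3 of these seed groups, and the groups described here had none. The family of mir-238, mir-239a and mir-239b was listed in full, with pooled values of 36.2 at mir-238 and 67.1 at the mir-239 pair, and mir-238 was absent from replicate 1. In the family of mir-2, mir-43, mir-250 and mir-797, known for its link to the insect K box miRNAs, 3 of 4 genes were listed. Their pooled values were 42.6 at mir-43, 39.2 at mir-250 and 36.4 at mir-2, and each was in both replicates. mir-43 shares its summit with mir-42 and mir-44, which lie beside it and have other seeds. The genes mir-50, mir-62 and mir-90 share a seed and a place inside protein-coding genes, and all 3 were listed. Their pooled values were 16.3 at mir-50, 37.2 at mir-62 and 25.4 at mir-90. mir-62 and mir-90 were in both replicates, whereas mir-50, near the lowest value of the pooled list (15.1), was absent from replicate 1. These groups were chosen after their values were seen, from those with most genes listed.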
